A study of Homo sapiens with 6 samples.

Results

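The 10 genes described here encode chaperones, folding enzymes and regulators of the endoplasmic reticulum (ER), the compartment in which secreted and membrane proteins fold, and of its unfolded protein response (UPR). They are HSPA5, HSP90B1, HYOU1, DNAJB9, SDF2L1, PDIA4, CRELD2, XBP1, HERPUD1 and EDEM1. They were chosen by gene symbol from a table of 17687 genes, all 10 were found there, and all 10 were among the 14005 genes with enough counts for the test.

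RNA was sequenced from KHM-5M, a human cell line from an anaplastic thyroid cancer, in 3 groups of 2 libraries each. Control cells received PBS, SS cells sodium selenite, and SS+NAC cells sodium selenite with N-acetylcysteine (NAC), a thiol compound from which cells can make glutathione. The labels give neither dose nor exposure time, the titles of the SS libraries carry a number that has no unit, and cells given NAC without selenite were not analysed here, so a difference between SS+NAC and control cannot be divided between the agents. The libraries held 17645545 and 22016655 expected counts in control, 23493415 and 23810056 in SS, and 23682740 and 22617180 in SS+NAC.

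The cell line was checked against its markers on the TPM scale, the transcript share that corrects for gene length. Of the thyroid lineage genes, PAX8 had a mean of 130 TPM and HHEX of 27.7 TPM in control, whereas TG (0.28), NKX2-1 (0.175), FOXE1 (0.96) and SLC5A5 (0.625) were below 1 and DIO1 was at 0. KRT8 (1161 TPM), KRT18 (930 TPM) and VIM (6041 TPM) were abundant. CDH1 was at 0.225 TPM. The 6 epithelial markers summed to 2136 and 2183 TPM in control, 2324 and 2571 in SS, and 2093 and 1762 in SS+NAC. The 6 mesenchymal markers summed to 7112 and 7413 TPM in control, 7466 and 7349 in SS, and 7535 and 7665 in SS+NAC. Among them FN1 had means of 1121, 775 and 1608 TPM and ZEB1 of 20, 8.46 and 20.2 TPM in control, SS and SS+NAC. In the same order CDH2 (50.2, 33 and 52.6 TPM) and ZEB2 (7.43, 4.62 and 7.71 TPM) were also lowest in SS. VIM (6041, 6563 and 5888 TPM) and TWIST1 (23.2, 23.4 and 24.3 TPM) were not. FN1, ZEB1, CDH2 and ZEB2 have effective lengths from 3989 to 9380 bases, VIM and TWIST1 of 1874 and 1662. Fold changes in SS fell with gene length over all genes, as given below, and TPM does not remove that trend. Its part in these markers was not tested. The 4 endothelial markers summed to less than 1 TPM in every library. The 6 leukocyte markers summed to 84.6 and 89.4 TPM in control, 85.1 and 73.2 in SS, and 103 and 113 in SS+NAC, nearly all of it from CD68, with PTPRC at 0.6 TPM in control and CD3E at 0 in 5 libraries. CD68 was highest in SS+NAC, and the part of these markers in the results was not tested.

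Proteins that enter the ER are bound by chaperones such as HSPA5 (BiP) and HSP90B1 (GRP94), and those that fail to fold are returned to the cytosol and degraded. When unfolded proteins accumulate, the sensors IRE1 (ERN1), ATF6 and PERK (EIF2AK3) start the UPR: IRE1 splices XBP1 mRNA into the form that encodes an active transcription factor, ATF6 is cleaved to release another, and PERK slows translation while favouring that of ATF4. Cleaved ATF6 and spliced XBP1 raise chaperone genes through the ER stress response element (ERSE), and other eIF2alpha kinases also lead to ATF4.

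The promoters of the 10 genes were searched because several of the genes share known regulators. In SS+NAC against control, as given below, the test called 3 of the 10 higher and did not call 7. All 10 had a RefSeq promoter sequence (GRCh38.p14), from 250 bases before to 50 after the gene start. Exact matches on both strands were counted for ERSE (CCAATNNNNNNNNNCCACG), ERSE-II (ATTGGNCCACG), the UPR element core TGACGTGG, and TGATGCAA, the core of the C/EBP-ATF response element (CARE) that ATF4 can bind. ERSE was found in 4 of the 10 genes (HSPA5, HSP90B1, XBP1 and CRELD2) and in 0.0769% of all 35116 promoter windows. ERSE-II was found in 3 (HYOU1, SDF2L1 and HERPUD1) and in 0.0541% of all windows. The CARE core was found in HERPUD1 alone of the 10, and in 0.866% of windows. TGACGTGG was found in HYOU1 alone of the 10, from 188 to 181 bases before the start, where it overlaps the upstream ERSE-II, and in 0.729% of windows. The windows of DNAJB9, PDIA4 and EDEM1 held none of these exact letters. Among 114 other pathway genes with a promoter window, ERSE was found in 3.51%, ERSE-II in 0, TGACGTGG in 10.5% and the CARE core in 1.75%. The 10 genes were chosen as chaperone and UPR genes, and ERSE is a known element of such genes. Their shares beside all windows are therefore a description and not a test. A match is a description of the sequence and not a measured binding site. The stretches with a match to ERSE, ERSE-II or the CARE core are shown with the match in capitals, which reads as the reverse complement where the motif is on the other strand.
HSPA5 ERSE: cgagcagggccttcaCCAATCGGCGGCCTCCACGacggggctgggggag
HSP90B1 ERSE, upstream copy: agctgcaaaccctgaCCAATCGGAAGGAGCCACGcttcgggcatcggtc
HSP90B1 ERSE, downstream copy: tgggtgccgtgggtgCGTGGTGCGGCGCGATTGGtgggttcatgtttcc
HYOU1 ERSE-II, downstream copy: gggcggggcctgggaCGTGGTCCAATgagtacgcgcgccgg
HYOU1 ERSE-II, upstream copy: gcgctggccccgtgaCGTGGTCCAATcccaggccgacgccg
SDF2L1 ERSE-II: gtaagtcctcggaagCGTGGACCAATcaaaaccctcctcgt
HERPUD1 ERSE-II: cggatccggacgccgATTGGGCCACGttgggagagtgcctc
HERPUD1 CARE core: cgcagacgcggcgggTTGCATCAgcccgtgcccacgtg
XBP1 ERSE: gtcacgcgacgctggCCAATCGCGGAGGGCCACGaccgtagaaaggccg
CRELD2 ERSE: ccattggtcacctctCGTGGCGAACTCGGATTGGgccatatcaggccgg
Each stretch is given in the direction of its gene, and distances are counted from the RefSeq start, at 103930410 for HSP90B1, 49918634 for CRELD2 and 56932142 for HERPUD1. The GENCODE spans of these 3 genes begin earlier, at 103930107, 49918167 and 56932048, so that the elements of HSP90B1 and CRELD2 lie inside the GENCODE span. The HSPA5 stretch lies at chr9:125241376-125241424 on the minus strand, with the element 66 to 48 bases before the start. The HSP90B1 stretches lie at chr12:103930201-103930249 and chr12:103930306-103930354 on the plus strand, and the elements begin 194 and 89 bases before the start. The XBP1 stretch lies at chr22:28800588-28800636 on the minus strand, with the element 52 to 34 bases before the start. The CRELD2 stretch lies at chr22:49918539-49918587 on the plus strand, with the element 80 to 62 bases before the start. The HYOU1 stretches lie at chr11:119057365-119057405 and chr11:119057259-119057299 on the minus strand, and the elements begin 185 and 79 bases before the start. The SDF2L1 stretch lies at chr22:21642099-21642139 on the plus strand, with the element 188 to 178 bases before the start. The HERPUD1 stretches lie at chr16:56932010-56932050 and chr16:56931951-56931988 on the plus strand, with the ERSE-II 117 to 107 bases before the start and the CARE core 176 to 169 bases before the start.

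On the TPM scale the control levels of the 10 genes ranged over nearly 2 orders of magnitude. HSP90B1 was highest at 576 ± 44.3 TPM (mean ± SD, n = 2), rank 225 of all 17687 genes, followed by HSPA5 at 419 ± 2.38. PDIA4 had 226 ± 1.29 TPM, XBP1 168 ± 6.79, HYOU1 98.7 ± 3.36, CRELD2 70.2 ± 2.09, HERPUD1 61.2 ± 0.148 and SDF2L1 40.1 ± 1.2. EDEM1 (15.5 ± 0.969) and DNAJB9 (6.79 ± 0.0778, rank 9213) were lowest. No neighbours in this order overlapped between the control libraries. In SS, HSPA5 had 350 ± 26.7 TPM and HSP90B1 344 ± 30.4, and their libraries overlapped. XBP1 (166 ± 17.7) and PDIA4 (168 ± 7.65) overlapped there too, as did HYOU1 (67.5 ± 5.4), CRELD2 (67.3 ± 0.997) and HERPUD1 (63.9 ± 1.56), the first with each of the others. In SS+NAC, XBP1 at 294 ± 18.6 TPM stood above PDIA4 at 231 ± 2.31, and HERPUD1 at 80.7 ± 6.32 above CRELD2 at 69.6 ± 0.912, both with no overlap.

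The values that follow are in CPM, counts scaled to the TMM-adjusted library size, which compare 1 gene between libraries. Fold changes are log2 values from edgeR's quasi-likelihood fit of all 6 libraries, with adjusted p-values from the Benjamini-Hochberg method over 14005 genes. A gene counted as called where that adjusted p was 0.05 or less. The libraries of a group are biological replicates according to the study's methods, and the p-values measure the spread between these samples alone. In bulk RNA of this kind, fewer cells that express a gene and less of its RNA per cell cannot be told apart.

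**Figure D1:**
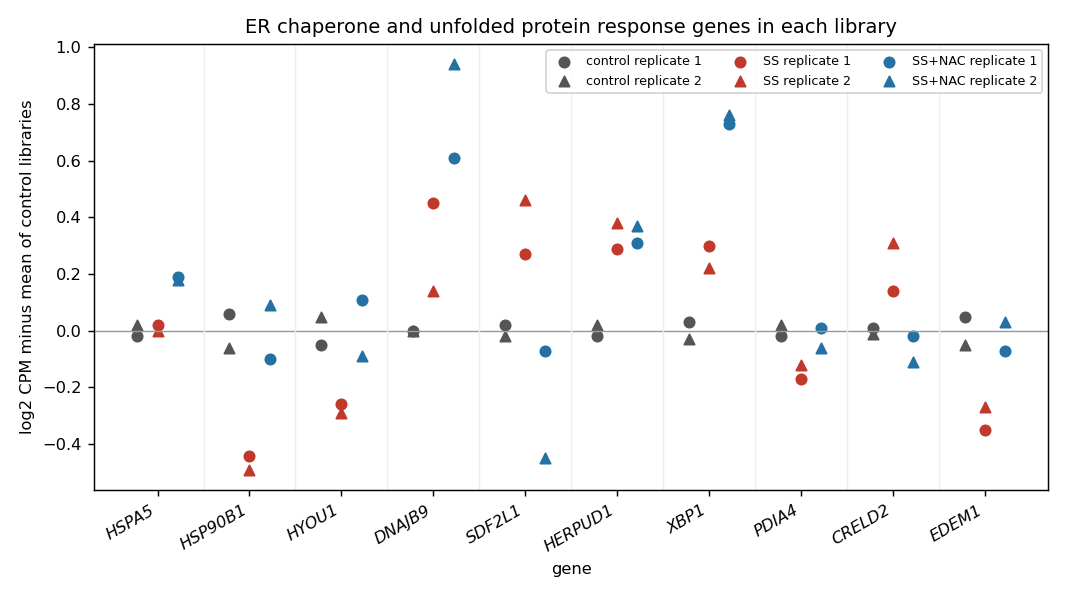
Log2 CPM of the 10 genes in each of the 6 libraries, minus the mean of the control libraries (y axis, log2 units; x axis, genes; circles replicate 1, triangles replicate 2). XBP1 in SS+NAC lies at 0.73 and 0.76 and HSP90B1 in SS at -0.44 and -0.49, while HSPA5 lies between -0.02 and 0.19 in every library.

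The comparison of SS with control asks what selenite alone did. HSP90B1 was lower in SS, by the same amount with and without a correction for gene length. Its length is near the median of all genes, where that correction is small. The other 6 calls among the 10 genes, which include XBP1, HERPUD1, HYOU1 and EDEM1, were made without that correction and not with it. HSPA5 was not called. All genes together showed a trend with length. The fold change fell with effective gene length (that implied by the deposited counts and FPKM), with a Spearman correlation of -0.68 across 14005 genes, which are not independent replicates. The median log2 fold change was 0.46 in the shortest eighth of genes and -0.46 in the longest. The same correlation was -0.64 for SS against SS+NAC and -0.04 for SS+NAC against control. For the 10 genes, each comparison with SS is therefore given also with an offset for length fitted in each library. The offset took the correlation to 0.00 and 0.02. For other pathway genes, some values are given only without the offset. The TMM scaling centres most genes, and scaling to the summed TPM instead, an alternative chosen after seeing the data, shifted the median of all genes by -0.27 in SS against control, -0.33 in SS against SS+NAC and 0.06 in SS+NAC against control. Changes are given relative to the TMM centre unless the TPM total is named.

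HSP90B1, the ER form of HSP90, fell in SS. Its level was 879 and 805 CPM in control, 618 and 600 in SS, and 784 and 897 in SS+NAC. Both SS libraries were below the other 4, and control and SS+NAC overlapped. The log2 fold change of SS against control was -0.47 (SE 0.0898, edgeR adjusted p = 0.00249). It was -0.47 with the length offset as well (SE 0.0793, edgeR adjusted p = 0.00693). The effective length of HSP90B1 is 2881 bases, beside a median of 3047 over all genes. In the nearest length bin (2741 bases) the median fold change of all genes was 0.03. The offset could therefore move its value little, and the equal values are no test of the fall. In the fit without the offset, leaving out any 1 library kept the call. On the TPM total it was -0.74 (edgeR adjusted p = 0.00033). HSP90B1 lies at chr12:103930107-103953645 (GRCh38, GENCODE release 29, plus strand), with 18 exons in its principal transcript, and overlaps C12orf73 and TTC41P on the other strand.

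HSPA5, the main ER chaperone of the HSP70 family and the protein that holds the sensors inactive, had 842 and 866 CPM in control, 868 and 857 in SS, and 972 and 967 in SS+NAC. SS and control overlapped, and both SS+NAC libraries were above all others. The fold change of SS against control was 0.01 (SE 0.0744, edgeR adjusted p = 0.902) and 0.19 with the offset (edgeR adjusted p = 0.0813). On the TPM total it was -0.26 (edgeR adjusted p = 0.0106), close to the shift of all genes. Its counts were fractional in all 6 libraries, as where RSEM divides reads between similar sequences, so its level may depend on that division. The gene lies at chr9:125234853-125241330 on the minus strand with 8 exons.

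Without the offset, edgeR called 7 of the 10 genes in SS against control, 4 higher (SDF2L1, HERPUD1, XBP1 and CRELD2) and 3 lower (HSP90B1, HYOU1 and EDEM1). Of all tested genes, 40.0% were called, 18.6% higher and 21.4% lower, a background of many calls against which the 7 have to be read. With the offset only HSP90B1 was called, 1 of 10, beside 9.23% of all genes (4.19% higher, 5.03% lower). The median log2 fold change of the 10 was 0.12 without and 0.00 with the offset, and that of all genes 0.00 and 0.01. On the TPM total the directions differed: 0 of the 10 were called higher and 5 lower in SS than in control, beside 564 of all genes higher and 5611 lower, against 2605 and 3004 with TMM.

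The genes called higher had short transcripts, and those called lower, apart from HSP90B1, long ones. SDF2L1, a partner of ER DNAJ proteins with an effective length of 854 bases, had 17.6 and 17.2 CPM in control and 21.0 and 24.0 in SS. Its fold change was 0.37 (edgeR adjusted p = 0.0395) and turned to -0.10 with the offset (edgeR adjusted p = 0.623). CRELD2, an ER protein with disulfide isomerase activity, had 51.1 and 50.2 CPM in control and 55.8 and 62.7 in SS, and its gene overlaps ALG12 on the other strand. Its 0.23 (edgeR adjusted p = 0.0486) turned to -0.10 with the offset and to -0.05 on the TPM total. SDF2L1 and CRELD2 were called neither without SS replicate 2 (0.27 and 0.14, edgeR adjusted p = 0.244 and 0.327) nor without either control library (edgeR adjusted p between 0.11 and 0.177). At sizes near those first given, both calls were also lost by the DESeq2 Wald test (adjusted p = 0.0533 and 0.0791), with no count filter (0.0546 and 0.075) and with the replicate block (0.0515 and 0.0964).

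HYOU1, an exchange factor of HSPA5 with an effective length of 4543 bases, had 220 and 236 CPM in control and 190 and 186 in SS, with no overlap. Its fold change was -0.28 (edgeR adjusted p = 0.0254), -0.04 with the offset and -0.55 on the TPM total (edgeR adjusted p = 0.000382). Without any 1 of the control and SS libraries it was not called, at -0.33 and -0.20 without control replicates 1 and 2 (edgeR adjusted p = 0.0732 and 0.257), and at -0.29 and -0.26 without SS replicates 1 and 2 (edgeR adjusted p = 0.0754 and 0.119). The replicate block gave -0.28 and no call (edgeR adjusted p = 0.0543). EDEM1, a lectin-like mannosidase that hands glycoproteins to degradation, has the longest effective length of the 10, 6236 bases. It had 50.7 and 47.5 CPM in control, 38.5 and 40.8 in SS, and 46.7 and 50.0 in SS+NAC, with SS lowest, and its counts, like those of HSPA5, were fractional, in 5 of the 6 libraries. Its -0.31 (edgeR adjusted p = 0.0114) became 0.08 with the offset and -0.58 on the TPM total (edgeR adjusted p = 0.000957), and the call was lost without control replicate 1 (-0.26, adjusted p = 0.116), control replicate 2 (-0.33, 0.0547) or SS replicate 1 (-0.27, 0.0772). PDIA4, a disulfide isomerase, had 336 and 346 CPM in control and 304 and 313 in SS, a difference of -0.15 that was not called (edgeR adjusted p = 0.14). With the offset it was -0.13 (edgeR adjusted p = 0.251). On the TPM total it was -0.42 (edgeR adjusted p = 0.000517), a scaling that moved all genes down. In the plot of fold change by length, HSP90B1 lay below the quartiles of genes of like length in SS against control, and DNAJB9 above them. HSPA5 (0.01) lay at their upper edge, which was -0.01 in the nearest length bin. PDIA4 (-0.15) lay at their lower edge, which was -0.11 in its nearest bin and -0.23 in the next.

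**Figure D2:**
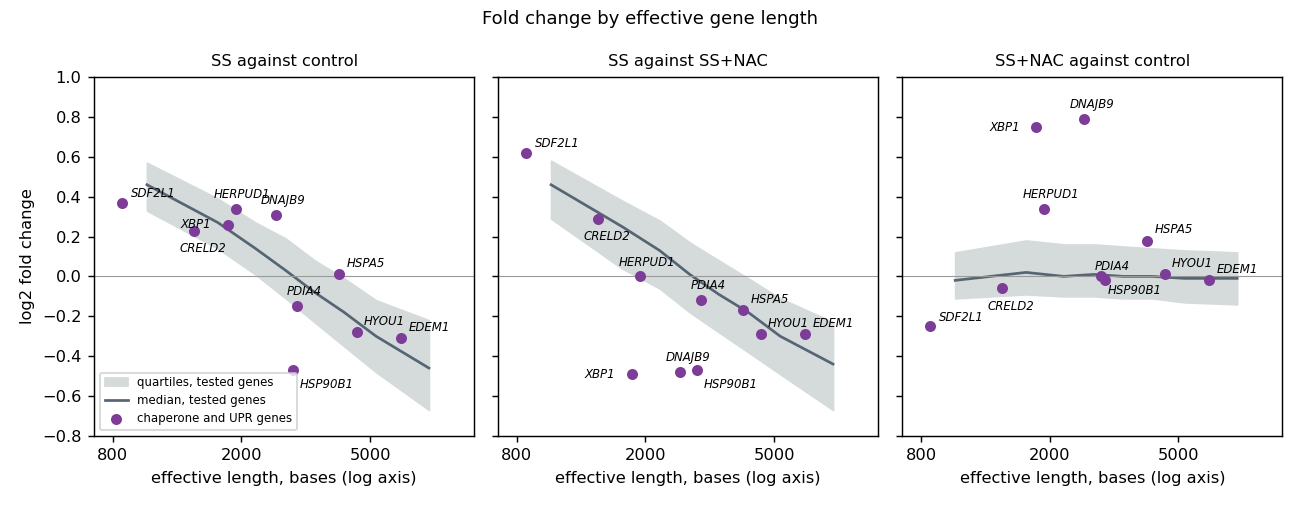
Log2 fold change (y axis) against effective length in bases (x axis, log scale) for the 10 genes (points) in the 3 comparisons, with the median and quartiles of all tested genes in 8 length bins (line and band). In SS against control the median of all genes runs from 0.46 to -0.46 and HSP90B1 at -0.47 lies below the band. In SS+NAC against control the line is flat. There XBP1 (0.75), DNAJB9 (0.79), HERPUD1 (0.34) and HSPA5 (0.18) lie above the band and SDF2L1 (-0.25) below it.

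The comparison of SS+NAC with control showed little trend with length and few changes in all genes, and 3 of the 10 genes were called higher by edgeR: XBP1, DNAJB9 and HERPUD1. Of all tested genes, 2.01% were called, 1.36% higher and 0.657% lower. That share depended strongly on single libraries: it rose without SS+NAC replicate 1 and fell without either control library. The same 3 genes were called with the length offset, beside 2.01% of all genes (1.35% higher, 0.664% lower). The median over the 10 genes was 0.00, as over all genes.

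XBP1, the transcription factor made active by IRE1, rose most clearly. Its level was 158 and 152 CPM in control, 190 and 180 in SS, and 257 and 263 in SS+NAC. The 3 groups did not overlap, and SS lay between the others. The log2 fold change of SS+NAC against control was 0.75 (SE 0.0725, edgeR adjusted p = 0.000347) and 0.73 with the offset (SE 0.0712, edgeR adjusted p = 0.000579). In the fit without the offset, leaving out any 1 library kept the call, with values between 0.73 and 0.77. In SS against control XBP1 was at 0.26 (edgeR adjusted p = 0.017), which was 0.03 with the offset (edgeR adjusted p = 0.815) and -0.01 on the TPM total. That call was lost without control replicate 1 (0.28, adjusted p = 0.102), control replicate 2 (0.26, 0.122) or SS replicate 1 (0.22, 0.101), and with the replicate block (0.26, 0.0527). XBP1 lies at chr22:28794555-28800597 on the minus strand with 5 exons, its count was fractional in 1 library, and counts per gene do not separate its spliced and unspliced mRNA. Its promoter carries the ERSE shown above. Those of HSPA5, HSP90B1 and CRELD2 also carry ERSE, and these genes were not called in SS+NAC against control.

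DNAJB9 (ERdj4), a cochaperone of HSPA5 that acts in degradation and on IRE1, had 8.78 and 8.82 CPM in control, 12.1 and 9.68 in SS, and 13.5 and 16.9 in SS+NAC. The groups did not overlap, and each SS+NAC library was above every other. The fold change was 0.79 (SE 0.148, edgeR adjusted p = 0.0233) and 0.77 with the offset (edgeR adjusted p = 0.0306). With 1 control library the size was nearly the same and the call was lost, at 0.79 without control replicate 1 (edgeR adjusted p = 0.124) and 0.80 without control replicate 2 (edgeR adjusted p = 0.12), and on the TPM total it was 0.85 (edgeR adjusted p = 0.0708). DNAJB9 is the least expressed of the 10, with 158 to 408 counts a library. In SS against control DNAJB9 was at 0.31 and not called (edgeR adjusted p = 0.137), and at 0.24 with the offset. Without SS replicate 1 DNAJB9 was at 0.14, without SS replicate 2 at 0.45, and on the TPM total at 0.04. It lies at chr7:108569568-108574850 on the plus strand with 3 exons and overlaps PNPLA8 and THAP5 on the other strand.

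HERPUD1, a membrane protein of the ER degradation complex, had 59.0 and 60.5 CPM in control, 73.2 and 77.9 in SS, and 73.9 and 77.2 in SS+NAC. Both treated groups were above control and overlapped each other. In SS+NAC against control the fold change was 0.34 (SE 0.0736, edgeR adjusted p = 0.0463) and 0.32 with the offset (edgeR adjusted p = 0.0442). The call sat at the threshold: it was lost without control replicate 1 (adjusted p = 0.357), control replicate 2 (0.326), SS replicate 1 (0.0741), SS replicate 2 (0.076) or SS+NAC replicate 2 (0.0851), with sizes from 0.31 to 0.36, and also under other settings at sizes from 0.32 to 0.40. These were the DESeq2 Wald test (adjusted p = 0.057), DESeq2 size factors (0.0616), no count filter (0.0685), the compared libraries alone (0.0722), the TPM total (0.0563) and the replicate block without (0.115) and with the offset (0.111). In SS against control the fold change was also 0.34 (SE 0.0738, edgeR adjusted p = 0.0049), but 0.14 with the offset (edgeR adjusted p = 0.235) and 0.06 on the TPM total. That call was lost without control replicate 1 (0.32, adjusted p = 0.0635) and without SS replicate 2 (0.29, adjusted p = 0.0529). The comparisons share the control libraries. HERPUD1 lies at chr16:56932048-56944863 on the plus strand with 8 exons, and its promoter carries the ERSE-II and the CARE core shown above. The promoters of HYOU1 and SDF2L1 also carry ERSE-II, and these genes were not called in SS+NAC against control.

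The chaperones themselves were not called in SS+NAC against control. HSPA5 was at 0.18 (SE 0.0744, edgeR adjusted p = 0.265), with both SS+NAC libraries above both controls. HSP90B1 was at 0.00 (SE 0.0895) and HYOU1 at 0.01 (SE 0.085), and PDIA4, EDEM1 and CRELD2 lay between -0.06 and -0.02. SDF2L1 had 16.5 and 12.7 CPM in SS+NAC, at -0.25 against control (edgeR adjusted p = 0.377), and without SS+NAC replicate 1 it was -0.45 and called (edgeR adjusted p = 0.0362).

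**Figure D3:**
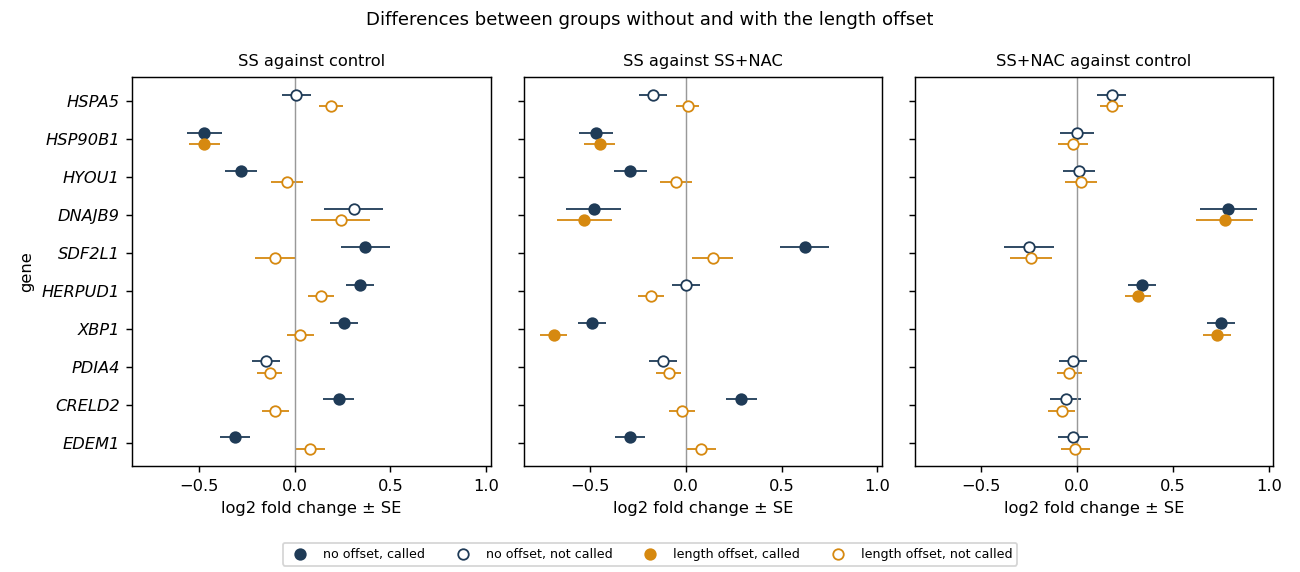
Log2 fold change ± SE (x axis) of the 10 genes in the 3 comparisons, from edgeR without an offset (blue) and with the length offset (orange), where filled points are calls. With the offset, HSP90B1 (-0.47) was called in SS against control, HSP90B1 (-0.45), DNAJB9 (-0.53) and XBP1 (-0.69) in SS against SS+NAC, and DNAJB9 (0.77), HERPUD1 (0.32) and XBP1 (0.73) in SS+NAC against control.

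The comparison of SS with SS+NAC asks what the addition of NAC changed under selenite. By edgeR 7 of the 10 genes were called, 2 higher in SS (SDF2L1 and CRELD2) and 5 lower (HSP90B1, HYOU1, DNAJB9, XBP1 and EDEM1), beside 42.7% of all genes (19.6% higher, 23.1% lower). With the offset 3 were called, all lower in SS: HSP90B1, DNAJB9 and XBP1. Of all genes, 14.4% were called with the offset, 7.03% higher and 7.39% lower. The median of the 10 was -0.23 and, with the offset, -0.07, and that of all genes -0.03 and 0.01. On the TPM total 0 of the 10 were called higher and 8 lower, beside 525 of all genes higher and 6827 lower, against 2745 and 3240 with TMM.

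HSP90B1 was lower in SS than in SS+NAC, at -0.47 (SE 0.0897, edgeR adjusted p = 0.00236) and, with the offset, at -0.45 (edgeR adjusted p = 0.00639). XBP1 was at -0.49 (SE 0.0719, edgeR adjusted p = 0.000636) and, with the offset, at -0.69 (edgeR adjusted p = 0.00067). Both calls were kept in the fit without the offset when any 1 library was left out. DNAJB9 was at -0.48 (SE 0.143, edgeR adjusted p = 0.0197) and -0.53 with the offset (edgeR adjusted p = 0.0361), but not called without SS replicate 2 (-0.34, adjusted p = 0.166) or SS+NAC replicate 2 (-0.31, adjusted p = 0.105), or with the replicate block and offset together (-0.53, adjusted p = 0.0531). HERPUD1 was at 0.00 (SE 0.0725, edgeR adjusted p = 0.992) and -0.18 with the offset (edgeR adjusted p = 0.101). HSPA5 was at -0.17 (edgeR adjusted p = 0.0923) and 0.01 with the offset. PDIA4 was at -0.12 (edgeR adjusted p = 0.21) and -0.09 with the offset (edgeR adjusted p = 0.37). On the TPM total HSPA5 (-0.50, edgeR adjusted p = 0.000267), HERPUD1 (-0.33, adjusted p = 0.00677) and PDIA4 (-0.45, adjusted p = 0.0003) were called lower in SS, a scaling that moved all genes down. On it HSP90B1 was at -0.80, XBP1 at -0.82 and DNAJB9 at -0.81.

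The other 4 calls of this comparison were not made with the offset. SDF2L1 was at 0.62 (edgeR adjusted p = 0.00327) and 0.14 with the offset (edgeR adjusted p = 0.415), and 0.29 on the TPM total, where it was not called (edgeR adjusted p = 0.0701). CRELD2 went from 0.29 to -0.02, HYOU1 from -0.29 to -0.05 and EDEM1 from -0.29 to 0.08. HYOU1 was at -0.61 and EDEM1 at -0.62 on the TPM total. CRELD2 was not called without SS replicate 2 (0.20, adjusted p = 0.15). EDEM1 was not called without SS replicate 1 (-0.24, adjusted p = 0.0948) or SS+NAC replicate 2 (-0.24, adjusted p = 0.0544), or by the DESeq2 Wald test (-0.26, adjusted p = 0.0507). HYOU1 was not called without control replicate 2 (-0.26, adjusted p = 0.0518), SS replicate 1 (-0.30, 0.063), SS replicate 2 (-0.27, 0.106) or SS+NAC replicate 1 (-0.18, 0.106).

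The other genes of the pathway were listed by role, 132 of them tested. The lists were chosen with earlier results of these data known, so differences between lists are a description and not a test. In SS+NAC against control, edgeR called 10 of the 14 genes of the PERK and ATF4 arm higher, with a median of 1.02 beside 0.00 over all genes, of which 2.01% were called. It called 0 of the 118 tested genes of the other 8 role lists, and the DESeq2 Wald test called 0 as well. Of these 118 genes, 14 had an unadjusted p under 0.05 by edgeR, beside 2256 of all 14005. The medians of these lists lay between 0.00 and 0.07. The most abundant genes of those lists by TPM were CALR (-0.03), P4HB (0.13), AUP1 (-0.08), SSR2 (0.05), OST4 (-0.09), KDELR1 (0.18), SPARC (0.03) and ATF6B (0.27), given as log2 fold changes.

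Of that arm, DDIT4 (2.38, edgeR adjusted p = 4.19e-05) and SLC7A11 (2.13, edgeR adjusted p = 2.36e-06) rose most in SS+NAC against control, and DDIT3 (CHOP) went from 9.73 and 10.5 CPM in control to 20.3 and 20.2 in SS and 19.7 and 24.1 in SS+NAC. DDIT3 was 1.99-fold higher in SS than in control (edgeR adjusted p = 0.00029), and its log2 fold change with the offset was 0.57 (edgeR adjusted p = 0.0274). The log2 fold change in SS against SS+NAC was -0.11 and, with the offset, -0.55 (edgeR adjusted p = 0.016). ATF4 mRNA had 577 and 608 CPM in control, 800 and 812 in SS, and 728 and 710 in SS+NAC, at 0.44 in SS (edgeR adjusted p = 0.00135; 0.12 with the offset, adjusted p = 0.253) and 0.28 in SS+NAC (edgeR adjusted p = 0.102). In SS against control the arm had 7 genes higher and 2 lower by edgeR, beside 40.0% of all genes called, and with the offset, beside 9.23%, 4 higher (DDIT3, CHAC1, ATF3 and DDIT4, of which CHAC1 was named after its values were seen). In SS against SS+NAC it had 1 higher and 8 lower, beside 42.7% of all genes called, and with the offset, beside 14.4%, it had 10 lower, with a median of -0.75.

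The sensors were expressed in all libraries. In SS+NAC against control edgeR called 0 of the 7 sensors and related factors, beside 2.01% of all genes, and DESeq2 called 0. An unadjusted p under 0.05 was found for 3 of the 7 and for 2256 of all 14005 genes. ERN1, which encodes IRE1, had 7.56 and 7.06 CPM in control, 7.19 and 6.21 in SS, and 9.86 and 8.81 in SS+NAC. SS+NAC was highest without overlap, at 0.35 against control (SE 0.137, edgeR adjusted p = 0.239). ERN1 in SS against control was at -0.12 and, with the offset, at 0.39 (edgeR adjusted p = 0.108). In SS against SS+NAC it was at -0.48 (edgeR adjusted p = 0.0168) and, with the offset, at 0.02 (edgeR adjusted p = 0.945). ATF6 had 94.6 and 93.7 CPM in control, 80.3 and 77.7 in SS, and 96.7 and 98.8 in SS+NAC, a fold change of -0.25 in SS against control (edgeR adjusted p = 0.0152) that was 0.01 with the offset. EIF2AK3, which encodes PERK, was at -0.40 in SS (edgeR adjusted p = 0.0206; -0.16 with the offset, adjusted p = 0.404). Of the 7 genes, 1 was higher and 3 lower in SS than in control by edgeR, among them CREB3 (0.28) and CREB3L2 (-0.41), beside 40.0% of all genes called. With the offset, beside 9.23% of all genes, edgeR called 0, with 1 at an unadjusted p under 0.05, while DESeq2, run without the offset, called 2. In SS against SS+NAC, CREB3L2 was lower with and without the offset (-0.26 and -0.68).

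**Figure D4:**
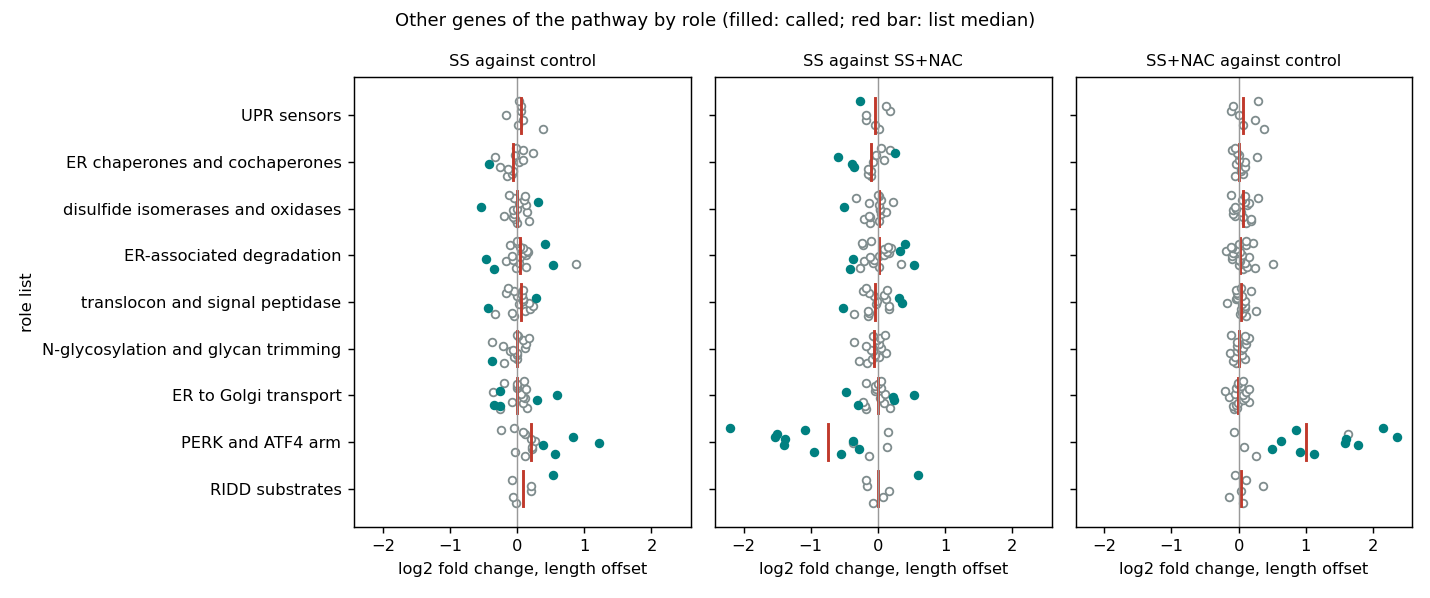
Log2 fold change with the length offset (x axis) of each tested pathway gene, by role list (y axis), in the 3 comparisons, with called genes filled and the list median as a red bar. The PERK and ATF4 arm stands at a median of 1.01 in SS+NAC against control and -0.75 in SS against SS+NAC, and every other list has a median between -0.10 and 0.09. The lists were chosen with earlier results of these data known.

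Of 13 tested genes of other chaperones and their partners, edgeR called 5 higher and 4 lower in SS than in control, beside 40.0% of all genes. DNAJC10, an ER reductase and cochaperone of HSPA5, had 149 and 135 CPM in control, 85.2 and 79.6 in SS, and 130 and 144 in SS+NAC, and both SS libraries were lowest. Its fold change was -0.79 in SS against control (edgeR adjusted p = 0.000186) and -0.42 with the offset (edgeR adjusted p = 0.00809). With the offset it was the 1 called gene of the 13, beside 9.23% of all genes, and DNAJC3 was at -0.59 without it and -0.25 with it (edgeR adjusted p = 0.0866). MANF and SDF2, both short, were at 0.42 and 0.43 without the offset and at -0.03 and 0.09 with it. In SS against SS+NAC, edgeR with the offset called 3 of the 13 lower, HSPA13 (-0.60), DNAJC10 (-0.38) and DNAJC3 (-0.35), and 1 higher, MESD (0.26). Of all genes, 14.4% were called there with the offset, 7.03% higher and 7.39% lower. MESD and DNAJC3 were named after their values were seen.

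Of 22 tested degradation genes edgeR called 6 higher and 3 lower in SS than in control, a share near the 40.0% of all genes. SEL1L, the scaffold of the HRD1 ubiquitin ligase, had 86.8 and 85.6 CPM in control, 52.5 and 48.7 in SS, and 85.3 and 93.9 in SS+NAC, at -0.77 in SS against control (edgeR adjusted p = 0.000162) and -0.34 with the offset (edgeR adjusted p = 0.0152). EDEM3, a mannosidase of the family of EDEM1, was at -0.88 (edgeR adjusted p = 0.000206) and -0.47 with the offset (edgeR adjusted p = 0.00995), whereas EDEM1 changed sign. With the offset, beside 9.23% of all genes called, 2 of the 22, DERL2 (0.54) and VCP (0.42), were higher in SS than in control, both named after their values were seen, and SEL1L and EDEM3 were the 2 lower. DERL3 was at 1.17 without the offset and at 0.87 with it (SE 0.395, edgeR adjusted p = 0.204), not called. RNF5 was at 0.50 without and 0.10 with the offset.

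In the other lists most calls of SS against control were not made with the offset, and the counts are to be read beside the 40.0% of all genes called without it and the 9.23% called with it. Scaling to the TPM total changed the directions over all role lists, from 37 higher and 30 lower to 9 and 63 in SS against control, and from 29 and 41 to 3 and 91 in SS against SS+NAC. Of 17 isomerases and oxidases, 4 were higher and 4 lower by edgeR, and with the offset ERP44 was higher (0.31) and TMX3 lower (-0.54, edgeR adjusted p = 0.01). Of 18 genes of the translocon and signal peptidase, 8 were higher and 3 lower, led by SEC61G (0.71) and SEC63 (-0.57), and with the offset SEC63 was lower (-0.43, edgeR adjusted p = 0.0121) and SPCS2 higher (0.28). Of 16 glycosylation and glycan trimming genes, 3 were higher and 4 lower, and with the offset STT3B alone was called (-0.37, edgeR adjusted p = 0.0247). Of 19 transport genes, 2 were higher (SEC13 and KDELR1) and 7 lower, among them SEC24A (-0.64) and LMAN1 (-0.63), and with the offset SAR1B (0.60) and SEC31A (0.30) were higher and SEC24A, SEC24B and MCFD2 lower. Of 6 transcripts that IRE1 is known to cut, BLOC1S1 alone was called higher (0.55, edgeR adjusted p = 0.00627), and it was at -0.02 with the offset, where CD59 alone was called (0.53, edgeR adjusted p = 0.0016). ERP44, SPCS2, SAR1B, SEC31A, SEC24B, MCFD2 and CD59 were named after their values were seen.

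Without the length offset the 10 genes did not follow 1 profile. Over the 6 libraries SDF2L1 and CRELD2 ran against HSP90B1, with Pearson correlations of log2 CPM of -0.88 and -0.91. With the offset, SDF2L1 (-0.10), CRELD2 (-0.10) and HSP90B1 (-0.47) had the same sign in SS against control. In SS against SS+NAC they were at 0.14, -0.02 and -0.45. The correlations that follow also use log2 CPM without the offset. The genes most like the mean of the 10 were sought among 9380 genes outside the lists with a mean of at least 10 CPM, by the Pearson correlation over the 6 libraries with the mean standardised log2 CPM of the 10 genes. They were SLC6A9 (r = 0.996), ARHGEF2 (0.992), MYC (0.983), SLC12A8 (0.983) and ADM2 (0.981), given as a description over 6 libraries in 3 groups. SLC6A9, a glycine transporter, had 15.3 and 16.1 CPM in control, 12.6 and 15.7 in SS, and 27.9 and 25.0 in SS+NAC. All 5 were highest in both SS+NAC libraries.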

How the data were processed

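The authors captured polyadenylated RNA of KHM-5M cells and sequenced single-end reads. The submitters' processing notes name HISAT2 2.0.4, Bowtie2 2.2.5 and RSEM 1.2.12; the annotation used is not given in the sources used here. The deposited table holds expected counts, which the authors estimated with RSEM. The TPM values were made by the authors with RSEM. The FPKM values were made by the authors in the same way, and served here only to derive each gene's effective length. The authors' fold changes, p-values, q-values and group means were not used.

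Counts were rounded, filtered with filterByExpr (14005 of 17687 genes kept), scaled with TMM and tested over all 6 libraries with edgeR 4.0.16 (R 4.3.3). The biological coefficient of variation was 6.74%. Strandedness of the counting is not given in the sources used here, so overlapping genes on the other strand may share reads. The deposited spans of several genes, among them HSPA5, HERPUD1 and EDEM1, are wider than those of GENCODE. That of HERPUD1 is chr16:56929023-57014344. Whether this changes their counts was not tested. The length offset was a lowess (span 0.3) of each library's log2 CPM deviation on log effective length. Replicates differed by more than sampling noise (chi-square per degree of freedom of 3.05 in control, 7.12 in SS and 11.7 in SS+NAC). Both fits, without and with the length offset, were also run on simulated counts for SS against control. Where these held no length trend, few calls of either fit were false. Where they held such a trend, most calls of the fit without the offset were false, and few of those with it. Calls made without the offset in the comparisons with SS have to be read with that result.

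The members and role lists were chosen with earlier results of these data known. Each role list could lend 2 higher and 2 lower genes per comparison, those with the largest fold change among the called genes whose mean reached 1 CPM in some group, or else its most abundant gene; the 10 genes, ERN1, ATF6, EIF2AK3, ATF4 and DDIT3 were named whatever their values. A few further genes called with the offset were named after their values were seen, as stated beside them. The role list symbol VIMP was not matched. Alternatives were DESeq2 1.42.0 size factors and Wald test, other count filters, a fit of the 4 compared libraries, the length offset, a block for replicate number, both of these together, Bonferroni adjustment, leaving out each library and, added after seeing the data, scaling to the TPM total. Tables and figures were made with Python 3.11.15, pandas 2.3.3 and matplotlib 3.10.9.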

Additional observations from a re-analysis of the deposited data

How the results depend on the processing

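Over the log2 fold changes of the 10 genes in the 3 comparisons, 342 values under an alternative kept direction and side of the threshold, 65 kept direction and lost the call, 5 kept direction and gained one, and 38 changed sign, some of which also lost or gained a call; the cause was not tested. Between SS and control the 7 called genes became 5 with the DESeq2 Wald test, with no count filter and on the TPM total, 3 with the replicate block, 1 with the length offset, 1 with both and 0 with Bonferroni adjustment, and 1 to 7 without 1 library; the 67 called pathway genes became 20, 14 and 3 with the offset, with the block and offset, and with Bonferroni adjustment, and 39 to 76 without 1 library; all called genes became 1292, 850 and 220, and 3118 to 6579. Between SS and SS+NAC the 7 genes became 3, 2 and 0 under these settings, 6 with the DESeq2 Wald test and 8 on the TPM total, and 4 to 7; the 70 pathway genes 30, 24 and 8, and 40 to 71; all genes 2019, 1350 and 191, and 3250 to 6339. Between SS+NAC and control the 3 genes became 2 with either DESeq2 setting, with no count filter and with the compared libraries only, 1 with Bonferroni adjustment and 1 on the TPM total, and 1 to 4 without 1 library; the 10 pathway genes became 7 with Bonferroni adjustment and 11 on the TPM total, and 8 to 14 without 1 library; the 282 called genes became 40 with Bonferroni adjustment and 167 on the TPM total, and 98 to 1086 without 1 library, the highest without SS+NAC replicate 1. The deviations of libraries with equal replicate numbers correlated across genes at 0.11 (control and SS), -0.11 (control and SS+NAC) and -0.17 (SS and SS+NAC). With 1 replicate difference per group, these values cannot decide whether the libraries were paired. The replicate block left 7 genes called between SS and SS+NAC and 2 between SS+NAC and control.

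Signs turned as follows. In SS against control the length offset gave SDF2L1 -0.10, CRELD2 -0.10 and EDEM1 0.08, the same with the replicate block and offset, and the TPM total gave HSPA5 -0.26, XBP1 -0.01 and CRELD2 -0.05. In SS against SS+NAC the offset, with or without the block, gave HSPA5 0.01, CRELD2 -0.02 and EDEM1 0.08, the TPM total gave CRELD2 -0.04, and HERPUD1 was 0.03 with either DESeq2 setting, 0.02 with at least 10 counts in every library and 0.01 with the compared libraries only. In SS+NAC against control HSP90B1 was 0.01 with at least 10 counts, 0.00 with the compared libraries only and 0.06 on the TPM total, HYOU1 -0.01 with either DESeq2 setting, PDIA4 0.03 and EDEM1 0.04 on the TPM total. Without 1 library, HSPA5 in SS against control ranged from -0.01 to 0.06, HERPUD1 in SS against SS+NAC from -0.05 to 0.04, and in SS+NAC against control HSP90B1 ranged from -0.10 to 0.09, HYOU1 from -0.10 to 0.11, PDIA4 from -0.06 to 0.01 and EDEM1 from -0.07 to 0.02. A group left with 1 library was assumed to vary like the others. DNAJB9 and SDF2L1, with the fewest counts, had the largest errors.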
